A study of Mus musculus with 2 samples.

Results

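A set of 10 genes of collagen folding and processing was followed in mouse mitral valves, namely P4ha1, P4ha2, Plod1, Plod2, Plod3, Serpinh1, Crtap, Bmp1, Pcolce and Adamts2. They were chosen by symbol for the known role of their products in making collagen, with earlier results of these data known. All 10 were found among the 33640 gene symbols of the deposited expression table. The study compared valves of wild-type (WT) mice with valves of mice heterozygous for Fbn1 C1039G, written Fbn1C1039G/+. That allele changes an amino acid of fibrillin-1 and is carried by a mouse model of Marfan syndrome. All mice were 5 months old, each pool held valves from 8 hearts of male and female mice, and the labels name no other allele, strain or treatment. Each genotype was 1 RNA library of pooled tissue, so there is no replicate error, no test was possible, and every difference is one between these 2 libraries. Values are TPM, a measure of transcript abundance that the authors' table gives per gene, scaled for transcript length and for the library's total. A difference is the log2(TPM + 1) value of the heterozygous pool less that of the wild-type pool, so positive numbers mark more TPM with the Fbn1 allele.

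Collagen chains are modified in the endoplasmic reticulum before they wind into a triple helix. Prolyl 4-hydroxylases make the hydroxyproline that keeps the helix stable at body temperature, and lysyl hydroxylases make the hydroxylysine that carries sugars and later forms cross-links. A dedicated chaperone, HSP47, binds the folded procollagen until it leaves the endoplasmic reticulum, and proteinases outside the cell then remove the propeptides so that fibrils can assemble. In heart valves, interstitial cells make the fibrillar collagens that carry the load on the leaflets.

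All 10 genes had more TPM in the heterozygous pool, by small amounts. The differences ran from 0.02 for Serpinh1 to 0.50 for Adamts2, with a median of 0.25. None of the 10 was at least 1.5-fold apart (0.58 on this scale) in either direction, and so none was at least 2-fold apart. Most other genes also had more TPM in that pool, and the median difference over the 17004 genes averaging at least 1 TPM was 0.14. Of these genes 64.9% lay above 0, 15.4% were higher by 1.5-fold or more and 4.73% lower by that much, while 2-fold or more was reached upward by 4.81% and downward by 1.72%. Among the 10145 genes averaging at least 10 TPM, which all 10 enzymes reach, those shares were 63.7%, 10.7%, 2.58%, 2.06% and 0.601%. The share of all genes above 0 was 53.5% after centring on the median of genes averaging at least 10 TPM, and 48.4% after quantile normalization. Under both of these scalings 9 of the 10 enzymes stayed above 0 and Serpinh1 lay below. Some of the 9 were close to 0, with Crtap at 0.01 and 0.02, P4ha1 at 0.04 and 0.02 and Pcolce at 0.04 and 0.07. On the deposited scale 8 of the 10 differences exceeded the median of all genes, the exceptions being Serpinh1 and Crtap. This count depends on the settings, at 6 of 10 with a pseudocount of 0.1, 9 with a pseudocount of 5 or a filter at 5 TPM, and 10 with no filter.

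**Figure D1:**
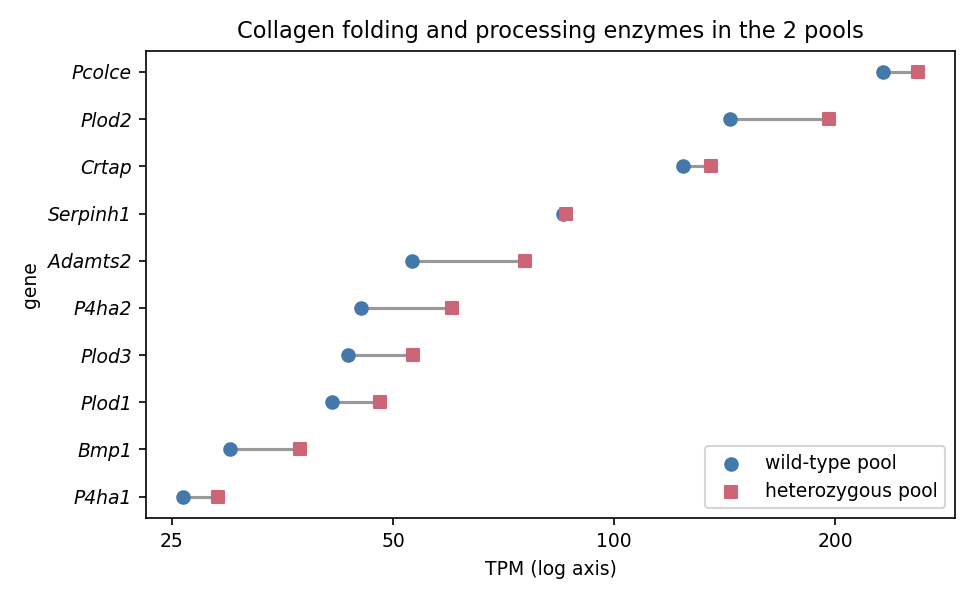
TPM of the 10 enzyme genes (horizontal log axis) in the wild-type pool (circles) and the heterozygous pool (squares), 1 library each, with a line joining both values of a gene. The square lies to the right of the circle for every gene, furthest for Adamts2 and least for Serpinh1, and the order of the genes from Pcolce down to P4ha1 is the same in both pools.

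The order of abundance was the same in both pools, with all 10 genes keeping their rank. Pcolce was the most abundant, at 232 TPM in wild-type and 259 TPM in heterozygous valves, and P4ha1 the least, at 25.9 and 28.9 TPM. Together the 10 genes took 824 TPM in wild-type and 979 TPM in heterozygous valves, a ratio of 1.19. P4ha2, Plod3 and Plod1 stood next to each other in this order, less than 4 TPM apart in the wild-type pool. That gap is smaller than the step each of these genes showed between the pools, which was at least 6.65 TPM. With 1 library a genotype, their order has no error estimate.

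**Figure D2:**
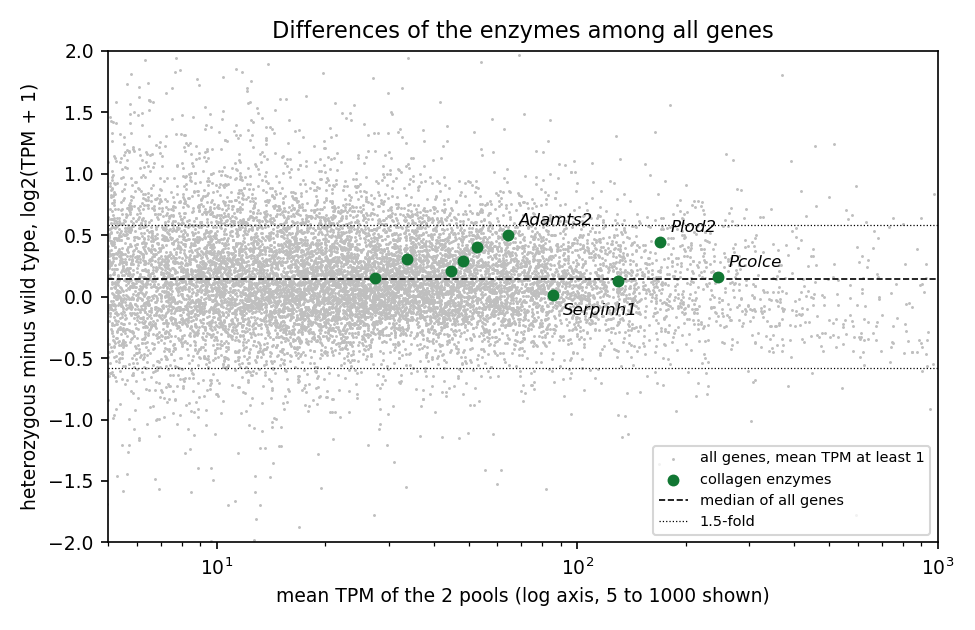
Difference between the pools (vertical axis, heterozygous minus wild type on the log2(TPM + 1) scale) against mean TPM (horizontal log axis) for all genes (grey) and for the 10 enzymes (green). The dashed line is the median of all genes, 0.14, the dotted lines mark 1.5-fold, and all 10 enzymes lie between 0 and the upper dotted line.

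The spread of genes of like abundance gives a scale for these differences, as a description and not a test. For each enzyme the 500 genes nearest in mean TPM were taken, and their central 95% was computed. All 10 enzymes lay inside that range, whose lower end was between −0.63 and −0.46 and whose upper end was between 0.69 and 1.02. Adamts2 stood at percentile 88.0 of its 500 neighbours, Plod2 at 86.0 and P4ha2 at 79.4. Serpinh1 stood lowest, at percentile 31.4.

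Promoter sequences are shown for the enzymes with the smallest and the largest difference and for the 2 subunit genes of prolyl 4-hydroxylase among the 10, P4ha1 and P4ha2, which share a function and differed by unequal amounts. Each is the 250 bases before the RefSeq transcription start (GRCm38.p6, the assembly called mm10), read 5′ to 3′ on the gene's strand. Capitals mark ACGTG or GCGTG on either strand, the core letters that hypoxia-inducible factors recognise. P4ha1 and P4ha2 are known targets of these factors.
P4ha1, chr10:59323046-59323295, plus strand: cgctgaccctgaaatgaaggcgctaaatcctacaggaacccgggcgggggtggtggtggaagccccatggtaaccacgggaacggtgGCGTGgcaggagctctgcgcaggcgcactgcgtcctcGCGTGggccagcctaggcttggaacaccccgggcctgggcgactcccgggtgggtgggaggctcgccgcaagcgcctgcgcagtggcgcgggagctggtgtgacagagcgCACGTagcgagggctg
P4ha2, chr11:54100674-54100923, plus strand: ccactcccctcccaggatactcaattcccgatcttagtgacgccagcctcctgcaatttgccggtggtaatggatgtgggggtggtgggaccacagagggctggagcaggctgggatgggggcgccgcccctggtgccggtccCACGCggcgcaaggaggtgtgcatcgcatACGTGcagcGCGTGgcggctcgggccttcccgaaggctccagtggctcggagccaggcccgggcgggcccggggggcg
Serpinh1, chr7:99353240-99353489, minus strand: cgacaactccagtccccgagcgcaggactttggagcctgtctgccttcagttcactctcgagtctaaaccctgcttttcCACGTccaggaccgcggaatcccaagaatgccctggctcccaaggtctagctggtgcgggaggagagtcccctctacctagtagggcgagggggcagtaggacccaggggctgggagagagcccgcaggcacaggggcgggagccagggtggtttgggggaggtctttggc
Adamts2, chr11:50601835-50602084, plus strand: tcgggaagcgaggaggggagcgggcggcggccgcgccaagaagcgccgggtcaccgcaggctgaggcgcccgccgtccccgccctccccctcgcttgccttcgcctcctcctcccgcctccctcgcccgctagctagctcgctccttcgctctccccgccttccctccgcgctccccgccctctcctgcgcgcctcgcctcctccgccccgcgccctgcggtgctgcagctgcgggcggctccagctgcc
The P4ha1 and P4ha2 windows each held the core at 3 places, the Serpinh1 window at 1 and the Adamts2 window at none. The P4ha2 window lies inside the longer gene model of GENCODE M21, where it touches no exon, and the Adamts2 window includes the first base of the GENCODE gene. RefSeq promoters were matched for 8 of the 10 genes, all but Plod2 and Bmp1. The core was found in 7 of these 8, against 38.6% of all 32851 promoter windows. Among the 7, the Pcolce window lies inside its GENCODE gene, with 83 bases in exons. The Plod3 window lies outside its gene but has 208 of 250 bases in GENCODE exons. Both forms of the core contain a CpG, and the windows held from 5 CpG (Pcolce) to 34 (Adamts2), against a median of 6. The 8 matched windows are rich in G and C, from 53.6% for Crtap to 78.0% for Adamts2, with a median of 52.4% over all promoters. The GC box GGGCGG, on either strand, was in 6 of the 8 windows, among them Adamts2 with 5 copies, and in 32.7% of all windows. The letters CCACG, the end of the element bound in the endoplasmic reticulum stress response, were in 5 of the 8 and in 28.3% of all windows, and some of these overlap the hypoxia core. CCAAT was in 1 of the 8, Plod3, against 33.8% of all windows. GAANNTTC, a part of the heat shock element, was in none of the 8 and in 6.69% of all windows. These matches describe the letters and show no binding.

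Prolyl 4-hydroxylase is built from alpha subunits, which hold the active site, and a beta subunit encoded by P4hb. P4ha1 (chromosome 10, 59323296 to 59373304, mm10) encodes the main alpha subunit of many tissues. It was at 25.9 TPM in wild-type and 28.9 TPM in heterozygous valves, a difference of 0.15, close to the median of all genes. P4ha2 (chromosome 11, 54100095 to 54131665), the alpha subunit prominent in cartilage and bone, was at 45.3 and 60.1 TPM, a difference of 0.40. P4ha3, the third alpha subunit, was at 35.3 and 55.9 TPM, a difference of 0.65. The less abundant P4ha1 thus differed least of the 3 subunits, and its share of their summed TPM was 24.3% in wild-type and 19.9% in heterozygous valves. The share of P4ha3 was 33.1% and 38.6%, and that of P4ha2 42.5% and 41.5%. With P4ha1 left out of the sum, the change in the share of P4ha2 was −4.39 percentage points in place of −1.04. A share within a library does not move with a common scaling of all genes. P4hb, which also acts alone as protein disulfide isomerase, was at 169 and 172 TPM. Its difference of 0.03 turned negative, at −0.09, after centring.

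Lysyl hydroxylases are encoded by 3 genes with distinct substrates. Plod2 (chromosome 9, 92542223 to 92608428) encodes the enzyme that hydroxylates lysines of the telopeptides, where cross-links form, and its human gene is mutated in Bruck syndrome. It was at 144 TPM in wild-type and 196 TPM in heterozygous valves, a difference of 0.44 and a ratio of 1.36. Plod1 (chromosome 4, 147909753 to 147936767), which acts on lysines of the triple helix, was at 41.3 and 47.9 TPM, a difference of 0.21. Plod3 (chromosome 5, 136987019 to 136996648), which also transfers sugars onto hydroxylysine, was at 43.4 and 53.3 TPM, a difference of 0.29. All 3 had more TPM in the heterozygous pool and Plod2 differed most. Plod2 made up 62.9% of the lysyl hydroxylase TPM in wild-type and 65.9% in heterozygous valves, and the ratio of Plod2 to Plod1 was 3.48 and 4.08. The Plod3 gene overlaps Znhit1 on the other strand by 1003 bases. Znhit1 was at 30.8 and 30.9 TPM, and no source used here says that reads were counted by strand.

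Genes whose products work beside the lysyl hydroxylases had differences of both signs. Fkbp10, a prolyl isomerase needed for telopeptide hydroxylation, was at 40.4 and 45.8 TPM, and the ratio of Plod2 to Fkbp10 was 3.55 and 4.27. P3h3 and P3h4, whose products form a complex with lysyl hydroxylase 1 in mice, were at 75.6 and 68.0 TPM and at 21.1 and 18.7 TPM. Colgalt1, which adds galactose to hydroxylysine, was at 28.1 and 29.9 TPM. Its relative Colgalt2 was at 21.0 and 12.6 TPM, a difference of −0.70, and was the 1 gene among the 13 folding partners at least 1.5-fold lower. Of all genes averaging at least 1 TPM, 4.73% were lower by that much. The share of Colgalt2 in the summed TPM of both galactosyltransferases was 42.8% in wild-type and 29.6% in heterozygous valves. Tmem38b, an ion channel of the endoplasmic reticulum whose human gene is mutated in osteogenesis imperfecta, was at 16.7 and 24.9 TPM. The isomerase genes Fkbp7 (79.5 and 86.9 TPM) and Fkbp14 (29.1 and 33.9 TPM) differed by 0.13 and 0.22.

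**Figure D3:**
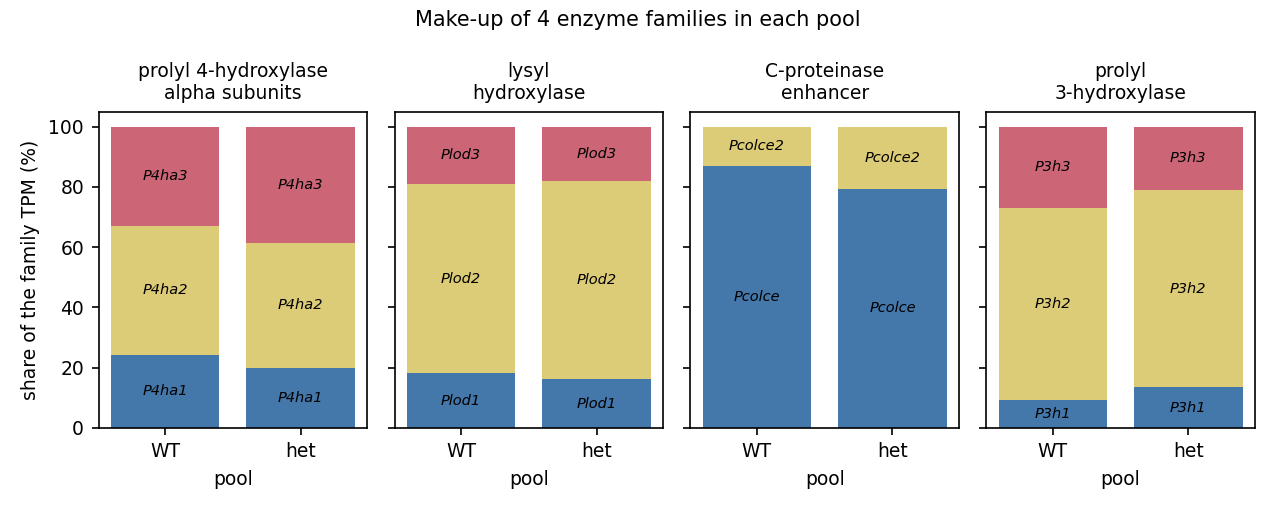
Make-up of 4 enzyme families in each pool, as the share of the family's summed TPM (vertical axis, percent) taken by each gene, with 1 stacked bar per pool. P4ha3, Pcolce2 and P3h1 take larger shares in the heterozygous bar, while Plod2 is the largest lysyl hydroxylase in both bars.

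Serpinh1 (chromosome 7, 99345376 to 99353239) encodes HSP47, the chaperone specific to collagen, and differed least of the 10 genes. It was at 85.1 TPM in wild-type and 86.1 TPM in heterozygous valves, a difference of 0.02, which became −0.10 after centring and −0.11 after quantile normalization. It was also −0.04 when mitochondrial, globin, ribosomal protein, Gm and Rik genes were left out. Serpinh1 is induced by heat shock factor, and the 10 cytosolic heat shock genes had a median difference of 0.02. A link between that factor and the Serpinh1 value was not tested. Hspa8 was at 907 and 930 TPM, Hsp90aa1 at 179.7 and 180.4 TPM, Hsph1 at 85.8 and 91.3 TPM, and Hspb1 at 128 and 112 TPM. None of these genes was 1.5-fold apart, and after centring their median was −0.09. Of all genes averaging at least 1 TPM, 15.4% were higher and 4.73% lower by 1.5-fold or more.

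Crtap (chromosome 9, 114375134 to 114390675) encodes the cartilage-associated protein, which holds prolyl 3-hydroxylase 1 and cyclophilin B in a complex that modifies and folds collagen chains. In humans, loss of any of these 3 proteins causes recessive osteogenesis imperfecta. Crtap was at 124 TPM in wild-type and 135 TPM in heterozygous valves, a difference of 0.12. That is below the median of all genes, 0.14, but at percentile 53.0 of its 500 neighbours, whose median was 0.10. P3h1, the catalytic partner, was at 25.3 and 43.3 TPM, a difference of 0.75. Ppib, which encodes cyclophilin B, was at 263 and 241 TPM, a difference of −0.13. The 3 genes of the complex thus differed by unequal amounts, and the ratio of P3h1 to Crtap was 0.204 in wild-type and 0.320 in heterozygous valves. The ratio of Crtap to Ppib was 0.471 and 0.563. P3h1 and P4ha3 were the 2 of 13 folding partners at least 1.5-fold higher, as were 15.4% of genes averaging at least 1 TPM. After centring P3h1, at 0.64, was still past that size while P4ha3, at 0.54, was not. P3h2, which acts mainly on basement membrane collagen, was at 178 and 211 TPM and remained the most abundant prolyl 3-hydroxylase gene, with 63.8% and 65.5% of their TPM.

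The propeptide at the C-terminal end of procollagen is removed by BMP1, a tolloid metalloproteinase, and PCOLCE binds the propeptide and speeds the cut. Bmp1 (chromosome 14, 70474558 to 70520234) was at 30.0 TPM in wild-type and 37.4 TPM in heterozygous valves, a difference of 0.31. Pcolce (chromosome 5, 137605103 to 137613784) was at 232 and 259 TPM, a difference of 0.16. The enhancer gene was therefore far more abundant than the proteinase gene in both pools, with a Bmp1 to Pcolce ratio of 0.129 and 0.144. Pcolce overlaps Fbxo24 by 1282 bases on the same strand, but Fbxo24 was at only 0.591 and 1.35 TPM. Bmp1 held 90.7% and 91.7% of the TPM of its family. The related tolloid genes Tll1 (3.05 and 3.33 TPM) and Tll2 (0.0247 and 0.0586 TPM) were far lower. Pcolce2, the second enhancer gene, was at 35.3 and 67.1 TPM, a difference of 0.91, and stood at percentile 98.2 of its 500 neighbours. Its share of the enhancer TPM was 13.2% in wild-type and 20.6% in heterozygous valves. Meprin genes, whose products can also cut procollagen, were at or near 0, with Mep1a listed at 0 in both pools and Mep1b at 0.0376 TPM and listed at 0.

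Adamts2 (chromosome 11, 50602084 to 50807573) encodes the main proteinase that removes the propeptide at the N-terminal end, and its loss in humans causes the dermatosparaxis type of Ehlers-Danlos syndrome. It was at 53.0 TPM in wild-type and 75.5 TPM in heterozygous valves, a difference of 0.50 and a ratio of 1.42, the largest of the 10 genes. Its relatives Adamts3 (2.93 and 3.26 TPM) and Adamts14 (1.51 and 1.70 TPM) were far less abundant and differed by 0.11 and 0.10. Adamts2 held 92.3% of the TPM of these 3 proteinases in wild-type and 93.8% in heterozygous valves. After centring, its difference was 0.39.

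Of the 9 fibrillar procollagen genes averaging at least 1 TPM, which encode main substrates of these enzymes, 7 had more TPM in the heterozygous pool and 2 had less. Those with less were Col11a2, at 11.2 and 7.57 TPM, and Col5a3, at 4.28 and 3.796 TPM. Of all genes averaging at least 1 TPM, 64.9% had more. The 11 fibrillar procollagen genes summed to 1570.1 TPM in wild-type and 1991 TPM in heterozygous valves, a ratio of 1.27, with Col3a1 at 760.2 and 995 TPM and Col1a2 at 401 and 476 TPM. Per 1000 TPM of these chains, 7 of the 10 enzyme genes were lower in the heterozygous pool and 3 were higher. The summed chains differed by 0.34 on the log2 scale, so any gene with a smaller difference was lower by this measure. Bmp1, with the largest log2 difference of the 7, stood at percentile 71.0 of its 500 neighbours. Most genes of its abundance would thus be lower too. Serpinh1 was at 54.2 TPM per 1000 collagen TPM in wild-type and 43.2 in heterozygous valves, a log2 ratio change of −0.33 with no pseudocount. Crtap was at 79.0 and 68.0, Pcolce at 148 and 130.1 and P4ha1 at 16.5 and 14.5. The genes with more per collagen were Adamts2, at 33.8 and 37.9, Plod2, at 91.5 and 98.3, and P4ha2, at 28.8 and 30.2. Against Col1a1 and Col1a2 alone, Plod3 and Bmp1 also had more, so 5 of the 10 were lower. Against Col3a1 alone, 7 of the 10 were lower, as with all 11 chains. The enzymes that stay with the chain in the endoplasmic reticulum and those that act outside the cell were found on both sides.

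**Figure D4:**
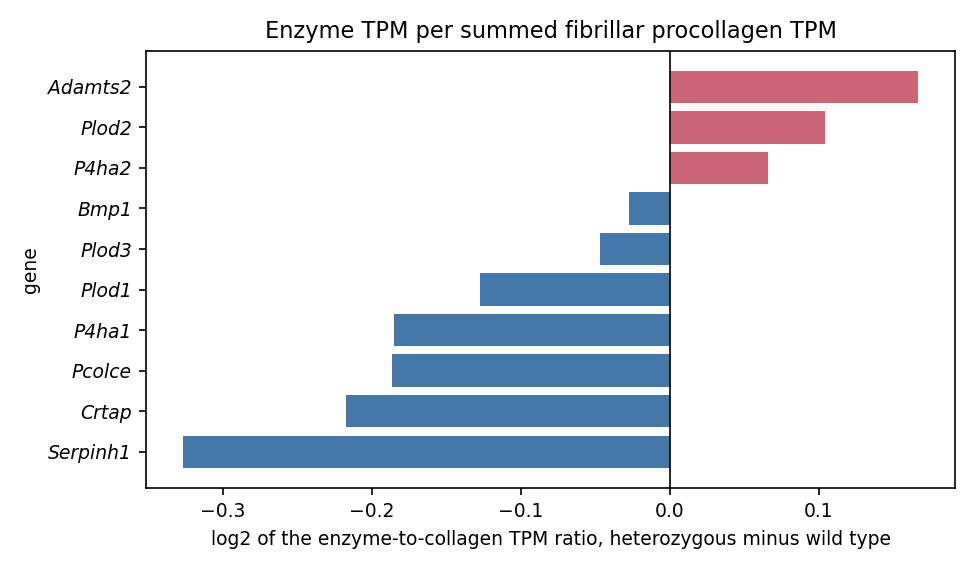
Change in each enzyme's TPM relative to the summed TPM of the 11 fibrillar procollagen genes (horizontal axis, log2 ratio, heterozygous minus wild type, no pseudocount). Bars to the left of 0 mark less enzyme TPM per collagen TPM in the heterozygous pool, from Serpinh1 at −0.33, and bars to the right mark more, up to Adamts2 at 0.17.

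Set beside other genes of collagen production, the 10 enzymes had a median of 0.25, like the 9 measured fibrillar procollagen genes at 0.26. Among the latter Col5a2 was at 83.5 and 133 TPM and Col27a1 at 9.13 and 14.6 TPM, the 2 of them at or past 1.5-fold. For scale, the median over all genes averaging at least 1 TPM was 0.14, and 64.9% of them lay above 0. Of the same genes 15.4% were higher by 1.5-fold or more and 4.73% lower by that much. The 13 folding partners had a median of 0.13, with 9 above 0, 2 higher by 1.5-fold or more and 1 lower by that much. Of the 7 other propeptide genes 4 averaged at least 1 TPM, with a median of 0.11, and Pcolce2 was the 1 at least 1.5-fold higher. The 11 genes of the procollagen export list had a median of 0.08 with 7 above 0 and none 1.5-fold apart. Of these Sec31a was at 211 and 223 TPM, Sar1a at 180 and 182 TPM, Mia2 at 83.0 and 124 TPM, and Creb3l2 at 92.4 and 122 TPM. After centring, the medians were 0.14 for the enzymes, 0.15 for the fibrillar procollagen genes, 0.02 for the folding partners, −0.0027 for the other propeptide genes and −0.03 for the export genes. Under quantile normalization they were 0.12 for the enzymes, 0.20 for the fibrillar procollagen genes, −0.00069 for the folding partners, −0.13 for the other propeptide genes and −0.05 for the export genes. After centring, Col5a2 and Col27a1 were no longer 1.5-fold higher, and Col11a2 was at least 1.5-fold lower, at −0.62. The medians of these lists were not compared by a test.

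**Figure D5:**
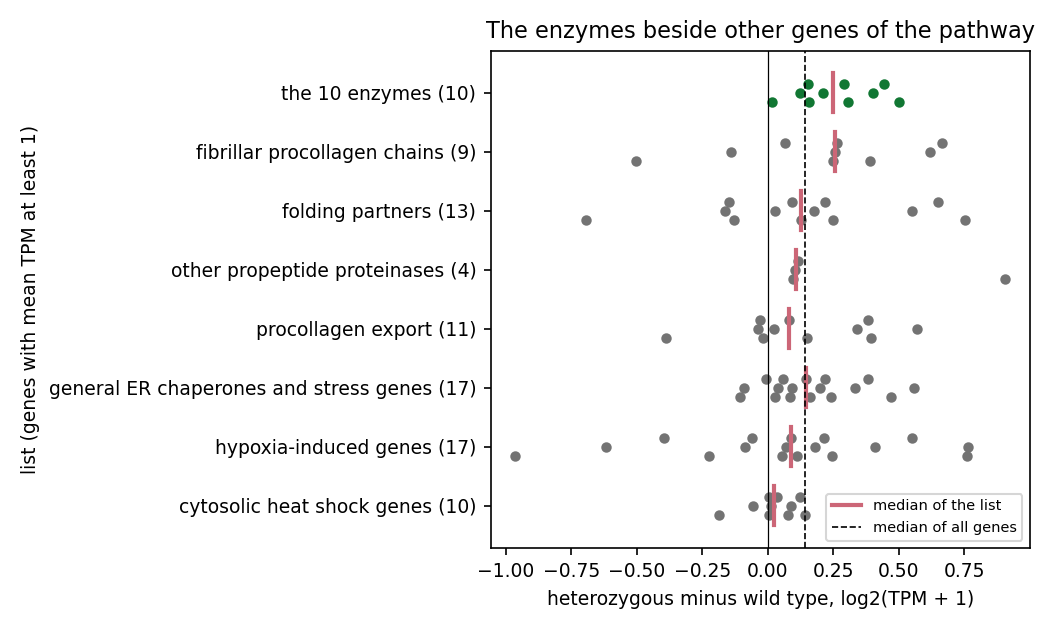
Differences between the pools (horizontal axis, heterozygous minus wild type on the log2(TPM + 1) scale) for the 10 enzymes (green) and for 7 other lists (grey), 1 point per gene, with the number of genes shown in brackets. Thick lines are list medians, 0.25 for the enzymes and 0.02 to 0.26 for the other lists, and the dashed line is the median of all genes at 0.14.

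General chaperones of the endoplasmic reticulum and genes of its stress response had a median of 0.15 over 17 genes, with 14 above 0 and none 1.5-fold apart. Among all genes averaging at least 1 TPM the median was 0.14, and 64.9% lay above 0. Of the same genes 15.4% were higher by 1.5-fold or more and 4.73% lower by that much. Hsp90b1 was at 733 and 747 TPM and Hspa5, which encodes the chaperone BiP, at 390.4 and 509.7 TPM. Manf (59.0 and 87.4 TPM) and Pdia6 (68.7 and 95.5 TPM) differed most of them. Hypoxia-induced genes had a median of 0.09 over 17 genes, with 11 above 0. Hk2 (20.9 and 36.2 TPM) and Kdm3a (56.2 and 95.8 TPM) were at least 1.5-fold higher, while Car9 (10.8 and 5.03 TPM) and Vegfa (117 and 75.8 TPM) were at least 1.5-fold lower. Ldha was at 321 and 333 TPM and Aldoa at 268 and 257 TPM. After centring, 9 of the 17 chaperone and stress genes and 7 of the 17 hypoxia-induced genes were above 0, against 53.5% of all genes.

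Cell markers differed between the pools, and their part in the enzyme values was not tested. The share of all genes above 0, for comparison, was 64.9%, or 53.5% after centring and 48.4% after quantile normalization. All 9 fibroblast and interstitial cell markers were present, summing to 17141 TPM in wild-type and 16044 TPM in heterozygous valves, with 5 of 9 above 0, or 2 of 9 after centring. Postn was at 1269 and 2263 TPM, Vim at 2797 and 3167 TPM, Dcn at 11409 and 9304 TPM and Lum at 1213 and 872 TPM. The 8 macrophage and monocyte markers were all above 0, or 7 of 8 after centring, summing to 1617 and 1992 TPM. Lyz2 made up most of both sums, at 1288 and 1587 TPM. The neutrophil markers summed to 18.5 and 104 TPM, with Ly6g listed at 0 in both pools. Of the 7 measured neutrophil markers 5 were above 0 and 2 below, or 4 and 3 after quantile normalization. The 4 at least 2-fold higher were S100a8, S100a9, Csf3r and Cxcr2, against 4.81% of all genes averaging at least 1 TPM. Mpo (1.01 and 1.19 TPM), Camp (1.49 and 0.949 TPM) and Retnlg (1.21 and 1.13 TPM) were low in both pools. The 8 cardiac muscle markers summed to 1986 and 1460 TPM, so both pools held muscle RNA, and 6 of the 8 were below 0. Myl2 was at 407 and 201 TPM, and Nppa went the other way, at 117 and 179 TPM. Endothelial markers summed to 498 and 479 TPM with 1 of 6 above 0, T cell markers to 54.9 and 40.0 TPM with 2 of 6 above 0, and smooth muscle markers to 125 and 153 TPM with all 3 measured genes above 0, or 2 of 3 after quantile normalization. Red blood cell genes summed to 6801 and 687 TPM with none of 5 above 0. Nearly all of these sums was globin, while Alas2 was at 27.6 and 23.3 TPM. The 4 Y-linked genes Ddx3y, Eif2s3y, Kdm5d and Uty summed to 101 and 143 TPM. The labels do not give the share of male mice in each pool. In tissue RNA, fewer cells of a type and less RNA per cell cannot be told apart.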

How the data were processed

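RNA of mitral valves pooled from 8 hearts per genotype was amplified with the Ovation RNAseq system and made into Nextera XT libraries, per the labels' protocols. Trimmomatic, HISAT2, kallisto and the mm10 genome are named in the submitters' processing notes. Not given in the sources used here: versions, roles, annotation and how transcripts became gene values. The authors deposited 1 TPM value per gene and library, per the file headers, and the columns sum to 999964 and 999945. TPM keeps no depth, so depth is unknown and no interval or floor was computed, and amplified reads are not independent molecules. A smaller share of any abundant transcript raises all other TPM values.

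From these values log2(TPM + 1) was differenced between the pools, heterozygous minus wild type, with a pseudocount of 1, which understates differences of low genes. Genes counted in summaries averaged at least 1 TPM over both pools. Family shares and ratios used TPM without a pseudocount. No test was run, since there is 1 library per genotype. The members and lists were chosen with earlier results of these data known. All 150 listed genes were found, 1 under an older symbol. Named genes were the 10 enzymes, all folding partners and other propeptide genes, and from each further list the 2 most abundant and the 2 with the largest difference among those averaging at least 5 TPM. Col11a2, Col5a3, Kdm3a, Vegfa, Znhit1, Fbxo24, Ly6g, Csf3r, Mpo, Camp, Retnlg, Alas2 and the Y-linked genes were named outside this rule, after their values were seen. For marker lists other than fibroblasts mainly sums are given in place of single genes. Coordinates are from GENCODE M21 and promoters from RefSeq (GRCm38.p6). The alternatives tried were pseudocounts of 0.1 and 5, the filter dropped or raised to 5 TPM, centring, quantile normalization, leaving out 5 classes of genes with the rest rescaled, and other families or collagens as denominators. The difference step was tested on simulated data with planted shifts. Python 3.11.15, NumPy 2.4.6, pandas 2.3.3 and Matplotlib 3.10.9 were used.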

Additional observations from a re-analysis of the deposited data

How the results depend on the processing

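With no replicates, a value was taken as moved when it changed by over 1.5 times. Of the 10 enzymes 9 lay above 0 under the 3 other scalings, with Crtap at only 0.013 after centring. Other pseudocounts and filters cannot change a sign. None was 1.5-fold apart in either direction under any of these 7 alternatives. The median of the 10 moved from 0.25 to 0.14 after centring and to 0.12 after quantile normalization. P4ha1, Plod1, Plod3, Crtap, Bmp1 and Pcolce also moved toward 0 under both, while P4ha2, Plod2 and Adamts2 did not move. Plod1 went from 0.21 to 0.10 and 0.08, Plod3 from 0.29 to 0.18 and 0.16, and Bmp1 from 0.31 to 0.20 and 0.16. The excess of the 10-gene median over the median of all genes was 0.25 without a filter, where the latter is 0. Serpinh1 changed sign to −0.10 after centring, −0.11 after quantile normalization and −0.038 with the technical gene classes left out, and P4hb to −0.086, −0.061 and −0.028 under the same 3. These shifts follow from the scalings, which lower the median of all genes. Without the least abundant family member, the change in share was −4.39 percentage points for P4ha2, 1.81 for Plod2 and −1.81 for Plod3, since the gene left out had carried part of the change. P4ha1 and Plod1 were themselves the least abundant of their families, and Tll2 and Adamts14 of theirs, so no value was computed for them. Set against Col1a1 and Col1a2 alone, Plod3 and Bmp1 changed sign to 0.041 and 0.060 on the log2 scale per collagen TPM. No paired analysis was possible because each genotype has 1 library. TPM gives no depth, so what depth limits cannot be stated, and leaving out a replicate is not possible.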
